A study of Homo sapiens with 39 samples.

Results

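The heterogeneous nuclear ribonucleoprotein (hnRNP) genes described here are 10 members of the family, among those known as its abundant proteins: HNRNPA1, HNRNPA2B1, HNRNPC, HNRNPD, HNRNPF, HNRNPH1, HNRNPK, HNRNPL, HNRNPM and HNRNPU. The rule matches symbols and applies no threshold on a measured value, though the 10 were chosen with earlier results of these data known. All 10 were found among the 21530 symbols of the polysome gradient table and the 26334 symbols of the RNA immunoprecipitation (RIP-seq) tables. The same symbols named 106 of 26613, 189 of 28828 and 342 of 92895 clusters in the 3 PAR-CLIP lists. The study followed RNA bound by the splicing factor U2AF1 and the ribosome loading of mRNAs. Gradient and RIP-seq libraries came from HBEC, human bronchial epithelial cells, in 3 lines, all untreated as far as the labels say: one with wild type U2AF1 (WT), one carrying U2AF1 S34F, and one whose U2AF1 label reads Frame Shift (FS). Each line gave 8 gradient libraries, from monosomes, from fractions with 2, 3, 4, 5, 6 and 7 ribosomes and from a pooled fraction with 8-10 ribosomes, and 3 RIP-seq libraries, named IP (precipitate), IgG (control antibody precipitate) and Cytosol. PAR-CLIP, in which crosslinked RNA is read through T-to-C conversions, used Flp-In-293 cells, a derivative of HEK 293, that expressed FLAG-HA tagged U2AF1. Its lists cover the cytoplasm for both the WT and the S34F protein, and chromatin for the WT protein alone. In the gradient and RIP-seq each genotype is 1 line with 1 library of a kind, so the 3 lines are the only replicates there. The tests take out the mean level of each line, and differences between genotypes in the change between kinds of library remain in the error. The labels do not say whether a line is a single clone or which allele the frame shift is on.

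The hnRNP proteins coat nascent transcripts in the nucleus, where they steer splice site choice, 3-prime end formation and export, and several of them shuttle to the cytoplasm and act on mRNA stability and translation. Many keep their own protein level in check by alternative splicing of their own pre-mRNA, often through introns and exons near or within the 3-prime UTR. U2AF1 is the smaller subunit of the U2AF dimer and reads the AG at the end of an intron, while its partner U2AF2 binds the pyrimidine tract before it, for which HNRNPC is a known competitor.

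Total counts ran from 2440145 to 13367574 in the 24 gradient libraries and from 2582141 to 29769968 in the 9 RIP-seq libraries. A count of 0 would allow up to 3 counts, or 0.224 to 1.23 CPM (a gene's counts scaled to a library total of 1000000) in the gradient and 0.101 to 1.16 CPM in RIP-seq, counting error only. The basal airway markers KRT5, TP63 and ITGB4 had medians of 2863, 195 and 2120 CPM in the gradient, and lay at 126 CPM or more in every Cytosol library. ITGA6, of the same list, lay at 142 CPM or more in all of these libraries. The other basal markers were low in some Cytosol libraries: KRT14 had a gradient median of 553 CPM but 0.0158 to 29.3 CPM in Cytosol, and KRT17 855 CPM but 11.9 to 957 CPM. Of markers of other cells, COL1A2, DCN and LUM (fibroblast) had gradient medians under 0.3 CPM, PTPRC (immune) 1.6 CPM and PECAM1 (endothelial) 8.13 CPM, against Cytosol medians of 0 for all 5. COL1A1 stood at 6.27 CPM in the gradient and 7.97 CPM in Cytosol. The tables do not state whether strand was used, and reads of near-identical copies can be split between genes.

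Relative to transcript length, HNRNPL and HNRNPC had the highest Cytosol levels of the 10 members. The name abundant did not hold for all of them here: the hnRNP genes PCBP2, PTBP1 and PCBP1, which are not members, had 67.0 ± 12.0, 62.3 ± 9.48 and 51.9 ± 2.7 RPKM (SD, n = 3), above every member's mean. In the authors' RPKM (reads scaled by transcript length and library total), HNRNPL, which binds CA-rich RNA, had 41.4, 48.6 and 49.8 in WT, S34F and FS, a mean of 46.6 ± 4.54 (SD, n = 3). HNRNPC, which binds uridine tracts as a core protein of the hnRNP particle, followed with 30.8, 33.5 and 37.3 RPKM, all below the HNRNPL values of the 3 lines. HNRNPF came next at 14.1 ± 0.336 (SD, n = 3), then HNRNPM at 12.2 ± 1.87 and HNRNPK at 11.3 ± 1.66, and the ranges of these neighbours overlapped for HNRNPF with HNRNPM and for HNRNPM with HNRNPK. HNRNPA1 stood at 9.54 ± 2.2, HNRNPH1 at 7.47 ± 0.646, HNRNPA2B1 at 5.12 ± 0.841, HNRNPD at 4.99 ± 1.44 and HNRNPU at 4.86 ± 0.555 RPKM (SD, n = 3). The ranges of the last 3 overlapped. The HNRNPA1 level rests on a counted length of 569 bases within a span of 4544. HNRNPA1P10 lies across the same place with a counted length of 0, and what set the HNRNPA1 length was not tested. The other 9 members were counted over 2159 to 6846 bases. A close copy of HNRNPA1, HNRNPA1L2, had 22.5 ± 3.06 RPKM (SD, n = 3) in Cytosol, and how reads were split between these copies was not tested.

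In the pooled fraction with 8-10 ribosomes, the mRNAs of 9 of the 10 members stood higher than in monosomes, and HNRNPA1 was not called. The background was 28.3% of 15945 genes called higher in the same comparison (edgeR quasi-likelihood test with line as a block, Benjamini-Hochberg adjusted p under 0.05). The members' median log2 fold change was 1.70, against 0.0754 over all genes tested. All 10 members passed the filter on low counts. CPM gives each fraction the same total, so these are relative levels within a fraction and not amounts of mRNA.

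Among the proteins that package pre-mRNA, HNRNPC had 399, 245 and 280 CPM in the monosome libraries (given throughout in the order WT, S34F, FS) and 719, 847 and 1038 CPM in the 8-10 fraction. Every 8-10 library lay above every monosome library, and the 18 libraries between them lay at 145 to 433 CPM (median 257). The fitted increase was 1.61 ± 0.302 log2 (SE, adjusted p = 0.000218). HNRNPA2B1, which takes part in splicing and in RNA transport, had 29.1, 54.6 and 49.9 CPM in monosomes and 69.7, 247 and 151 CPM in the 8-10 fraction. Its fraction with 8-10 ribosomes lay above monosomes in all 3 lines, the S34F library was the highest, and the increase was 1.85 ± 0.351 log2 (adjusted p = 0.000241).

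HNRNPD, also known as AUF1, binds AU-rich elements and directs the decay of mRNAs that carry them. It had 5.8, 7.69 and 11.5 CPM in monosomes, 5.72 to 22.3 CPM (median 13.2) in the 18 libraries with 2 to 7 ribosomes, and 43.1, 91.1 and 97.0 CPM in the 8-10 fraction. The groups were far apart: the lowest 8-10 library was above the highest of the other 21. At 3.32 ± 0.358 log2, or 10-fold (adjusted p = 1.67e-06), its increase was the largest of the 10 members. The 8-10 fraction held 36.5%, 54.5% and 45.9% of its CPM summed over the 8 fractions in WT, S34F and FS.

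The G-run binding pair HNRNPF and HNRNPH1, related splicing regulators, rose less. HNRNPF had 125, 116 and 143 CPM in monosomes and 226, 260 and 329 CPM in the 8-10 fraction, an increase of 1.20 ± 0.26 log2 (adjusted p = 0.0007). HNRNPH1 had 60.9, 65.7 and 79.3 CPM in monosomes and 64.4, 169 and 113 CPM in the 8-10 fraction, where the WT library lay within the monosome range. Its increase of 0.807 ± 0.296 log2 (adjusted p = 0.0271) was the smallest called. It was lost without the line block (adjusted p = 0.0912), without S34F (0.535 log2, adjusted p = 0.23), without FS (0.901 log2, adjusted p = 0.0792) and without the 3 libraries of very low HNRNPA1 described further on (0.431 log2, adjusted p = 0.244).

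HNRNPK, a KH-domain protein that binds C-rich RNA, had 101, 109 and 173 CPM in monosomes and 213, 513 and 548 CPM in the 8-10 fraction, with no overlap between the groups and an increase of 1.79 ± 0.27 log2 (adjusted p = 3.92e-05). HNRNPL had 155, 149 and 152 CPM in monosomes and 344, 314 and 396 CPM in the 8-10 fraction. Its monosome levels lay close together (SD 3.02 CPM, n = 3), and it rose by 1.36 ± 0.296 log2 (adjusted p = 0.000729). HNRNPM, a splicing regulator that binds GU-rich RNA, had 6.02, 16.6 and 14.2 CPM in monosomes against 27.9, 66.9 and 45.7 CPM, an increase of 2.09 ± 0.414 log2 (adjusted p = 0.000324). HNRNPU, or SAF-A, ties RNA to chromatin and the nuclear matrix. It had 28.4, 39.8 and 44.1 CPM in monosomes against 81.6, 226 and 119 CPM and rose by 1.97 ± 0.273 log2 (adjusted p = 1.87e-05).

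**Figure D1:**
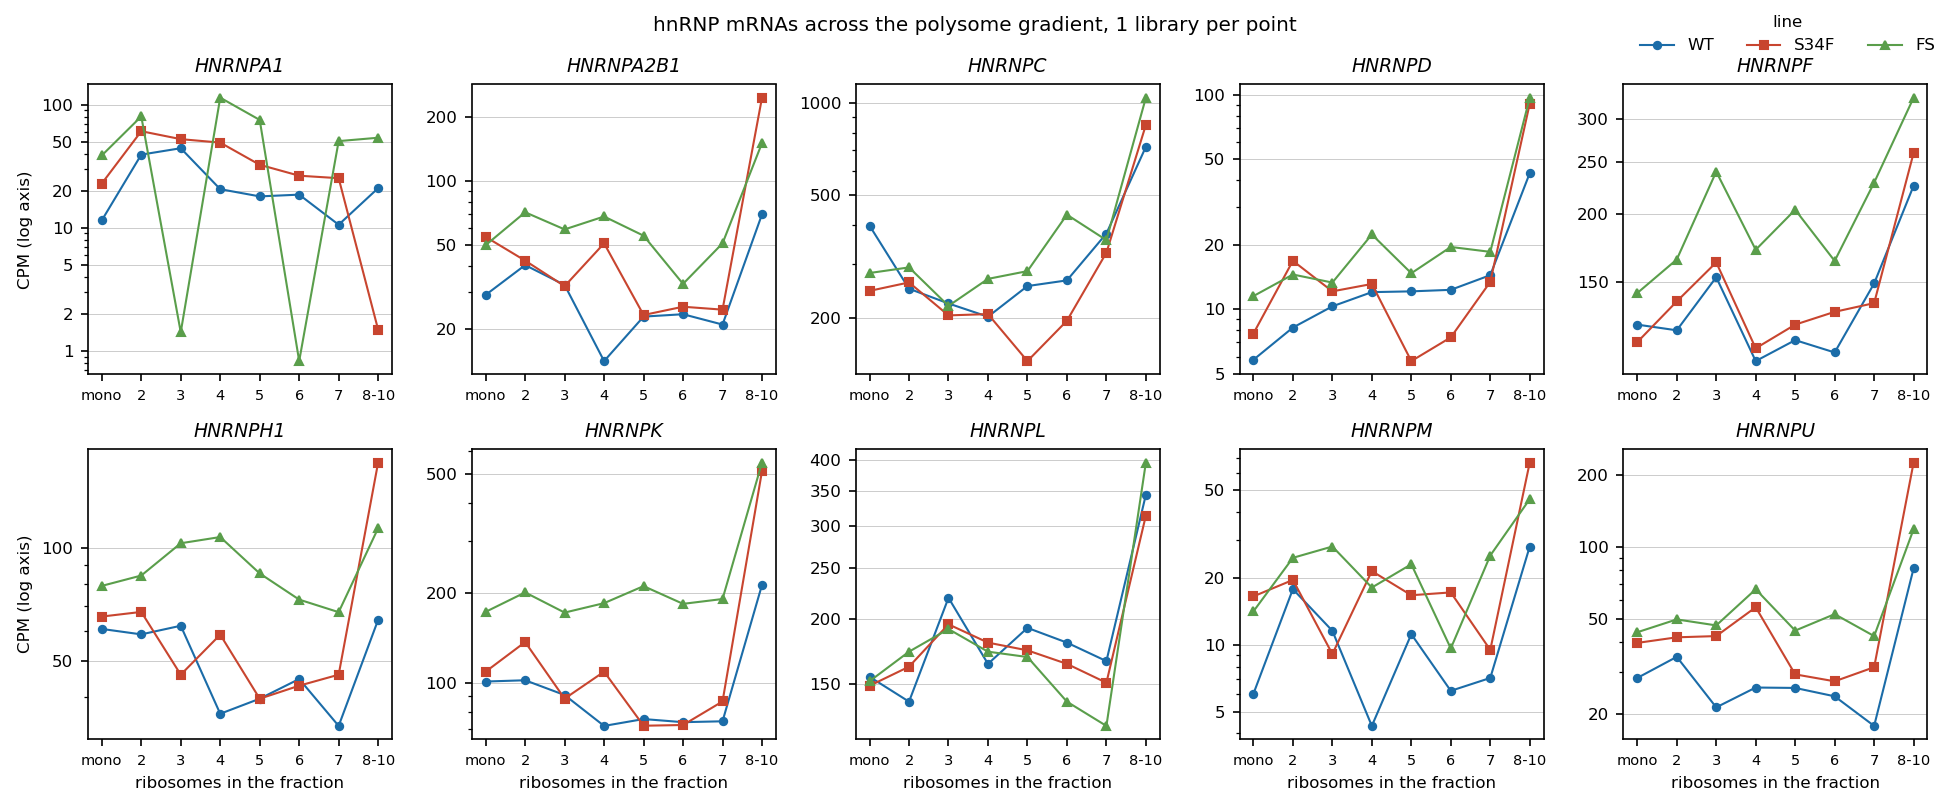
Level of each member (y axis, CPM on a log axis) in each fraction of the gradient (x axis, ribosomes in the fraction) for the WT, S34F and FS lines, with 1 library per point. In 9 panels the 8-10 fraction is above the monosome fraction in all 3 lines, while HNRNPA1 drops to 1.42 and 0.828 CPM in 2 FS libraries and to 1.49 CPM in 1 S34F library. How many of all genes are higher in all 3 lines was not counted.

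Steps within the gradient were examined next. From monosomes to 2 and 3 ribosomes 0 of 10 members were called (background 3.14% of genes called in either direction), with 3 at an unadjusted p under 0.05 and 0 called by DESeq2. From 2 and 3 to 6 and 7 ribosomes edgeR again called 0 of 10 (background 33.6%), with 2 at an unadjusted p under 0.05, while DESeq2 called HNRNPC higher (0.421 log2, adjusted p = 0.0414) and HNRNPA2B1 lower (-0.619 log2, adjusted p = 0.0339). The members' medians of these comparisons were 0.364 and -0.205 log2, against -0.00533 and -0.0376 over all genes. Between 7 and 8-10 ribosomes, a comparison chosen after these levels were seen, 8 of 10 members were higher (background 14.5% called higher) and the median was 1.34 log2, against -0.154 over all genes.

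HNRNPA2B1, HNRNPD and HNRNPU had the largest of these last steps, at 2.02 ± 0.355, 2.02 ± 0.335 and 1.99 ± 0.273 log2 (SE; adjusted p = 0.000212, 0.000137 and 4.76e-05). HNRNPU for example went from 17.9, 31.5 and 42.5 CPM at 7 ribosomes to 81.6, 226 and 119 CPM at 8-10 in WT, S34F and FS. HNRNPF (0.462 ± 0.257 log2, adjusted p = 0.19) and HNRNPA1 (-0.172 ± 0.984 log2, adjusted p = 0.919) were not called by edgeR in this step, while DESeq2 called HNRNPF (0.509 log2, adjusted p = 0.0407). The calls of HNRNPC and HNRNPL were lost without FS (0.918 and 0.813 log2, adjusted p = 0.116 and 0.136), and that of HNRNPH1 without S34F (0.807 log2, adjusted p = 0.115) and without the libraries of very low HNRNPA1 (0.789 log2, adjusted p = 0.0556). The calls of HNRNPH1 and HNRNPM were lost without the line block (adjusted p = 0.0737 and 0.0546). When the 5, 6, 7 and 8-10 fractions together were set against monosomes and 2 ribosomes, 5 members were called higher (background 31.3% called higher): HNRNPC, HNRNPD, HNRNPF, HNRNPL and HNRNPU.

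**Figure D2:**
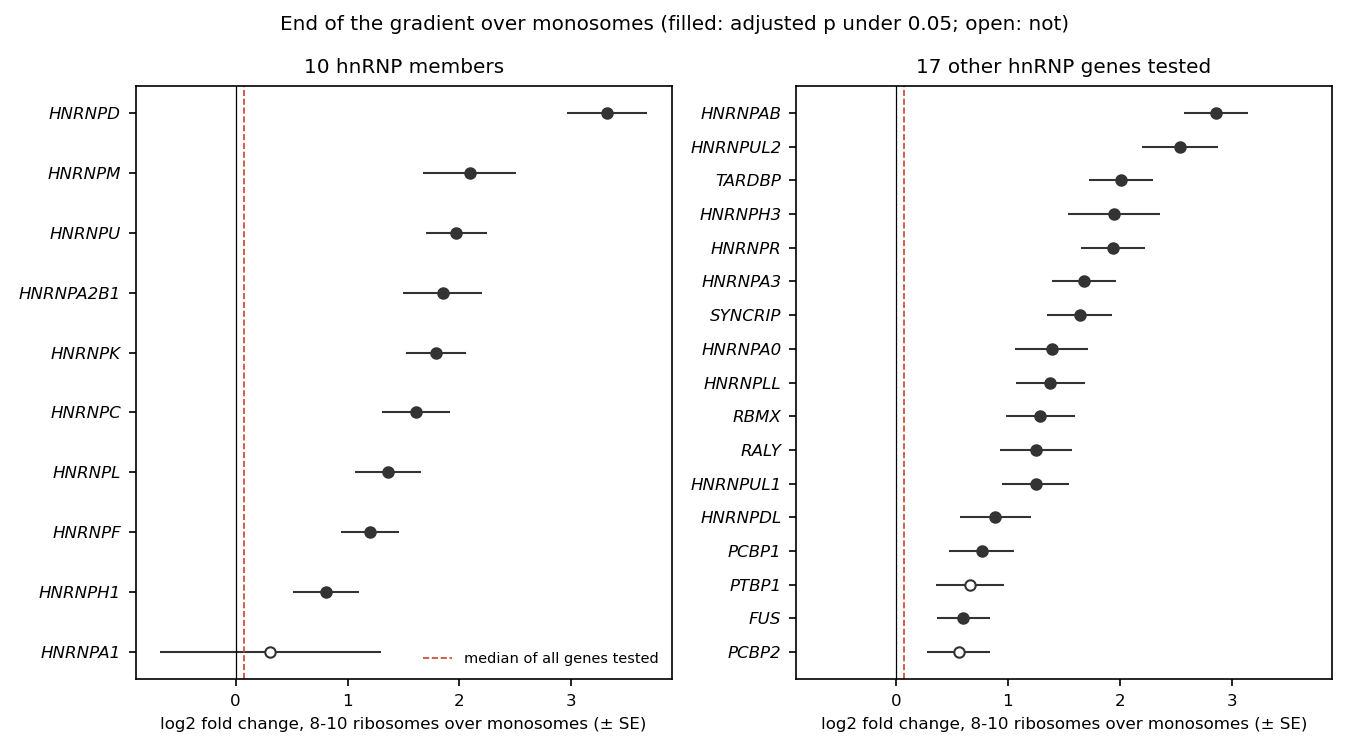
Log2 fold change of the 8-10 fraction over monosomes with its standard error (x axis) for each member (left) and for 17 other hnRNP genes (right). Filled points passed an adjusted p of 0.05, the dashed line is the median of all genes tested at 0.0754, and HNRNPD at 3.32 lies farthest to the right.

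HNRNPA1, a splicing repressor that shuttles between nucleus and cytoplasm, was the one member whose gradient values did not hold together. In WT it had 11.5 CPM in monosomes, 39.3, 44.3, 20.6, 18.0, 18.6 and 10.6 CPM with 2 to 7 ribosomes and 21.0 CPM with 8-10. In S34F it went from 22.9 CPM in monosomes through 60.9 CPM at 2 ribosomes to 25.3 CPM at 7, then to 1.49 CPM at 8-10. In FS it lay at 38.7 to 114 CPM in 6 libraries but at 1.42 CPM with 3 ribosomes and 0.828 CPM with 6. These 3 libraries, with 15.52, 16.94 and 7.06 counts, stood far below the HNRNPA1 medians of their lines, 29.5 CPM in S34F and 52.2 CPM in FS. The 8-10 over monosome change was 0.31 ± 0.987 log2 (adjusted p = 0.8), and without the 3 libraries it was 0.83 log2. That last value is a description only, since the libraries were left out for their HNRNPA1 level.

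Its close copy HNRNPA1L2 had no such low libraries. With 2 and 3 ribosomes it had 101 and 105 CPM in WT, 125 and 122 in S34F and 182 and 282 in FS. In monosomes it had 31.3, 60.8 and 53.9 CPM, so it rose by 1.84 ± 0.311 log2 from monosomes to 2 and 3 ribosomes (adjusted p = 0.00375) and then fell by 1.37 ± 0.236 log2 to 6 and 7 ribosomes (adjusted p = 0.000106). In the libraries where HNRNPA1 was lowest, HNRNPA1L2 had 282 CPM (FS, 3 ribosomes) and 136 CPM (S34F, 8-10), its highest values in those lines, and 62.2 CPM (FS, 6 ribosomes). The part of read assignment between the copies in these values was not tested. With HNRNPA1, HNRNPA1L2, HNRNPA1P10 and HNRNPA1P33 summed, a setting added after the values were seen, the sum rose by 1.68 log2 to 2 and 3 ribosomes (adjusted p = 0.00429) and fell by 1.29 log2 from there to 6 and 7 (adjusted p = 0.00012).

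**Figure D3:**
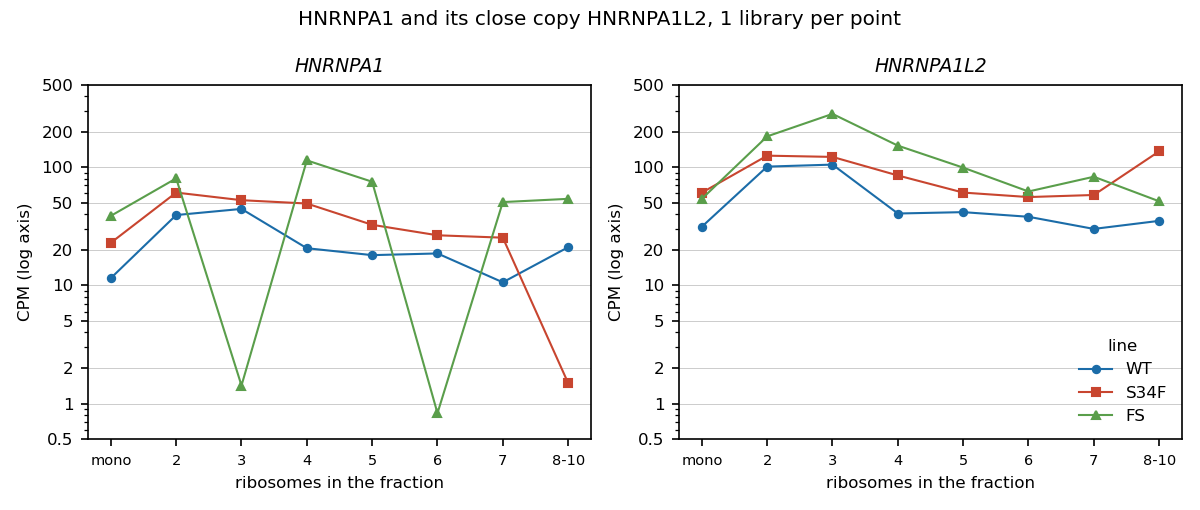
HNRNPA1 (left) and its copy HNRNPA1L2 (right) in CPM on a log axis over the gradient fractions, with 1 library per point and the 3 lines in colour. HNRNPA1 has 3 isolated low libraries between 0.828 and 1.49 CPM, while HNRNPA1L2 has no library under 30 CPM and reaches 282 CPM, highest at 3 ribosomes in WT and FS and at 8-10 in S34F.

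A mean position in the gradient, called here the ribosome index, was taken by weighting each ribosome number with the gene's CPM and setting the last fraction at 9. It had a member median of 5.15 in WT, 5.77 in S34F and 5.23 in FS, against 4.76, 4.94 and 4.82 over 9501 genes with at least 500 counts per gradient. HNRNPD had 6.12, 6.67 and 6.45, which put it above 99.7%, 99.8% and 99.9% of those genes. HNRNPA1 had the lowest index of the 10 members in each line, at 4.19, 3.73 and 4.53. Its S34F and FS values include the 3 libraries of very low HNRNPA1 described above, and the index was not taken without them. The index rests on the same libraries as the comparisons above and is a relative position, not a number of ribosomes per mRNA.

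Between lines there was 1 library of each kind, so values are given side by side with no test. In S34F the 8-10 fraction held a larger share of the summed CPM than in the other 2 lines for 8 of 10 members, which was the case for 45.8% of the 9501 genes. For HNRNPA2B1 that share was 27.5%, 49.3% and 28.0% in WT, S34F and FS, for HNRNPU 31.4%, 45.6% and 25.4%, for HNRNPK 26.6%, 43.2% and 29.4%, and for HNRNPH1 16.1%, 31.6% and 15.8%. HNRNPL had no such S34F value, with 22.1%, 21.1% and 26.1%. The mean CPM over the 8 fractions was highest in FS for 8 members (44.5% of the 9501 genes), for example 100, 148 and 233 CPM for HNRNPK in WT, S34F and FS. For HNRNPL this mean was 195, 186 and 190 CPM.

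Other hnRNP genes were mostly higher at 8-10 ribosomes too. Of 18 of them 17 were tested (HNRNPH2 was filtered), and 15 were higher than in monosomes and 0 lower, with a median of 1.38 log2. HNRNPAB, a relative of HNRNPD, rose by 2.86 ± 0.283 log2 (adjusted p = 1.34e-06) and HNRNPUL2, a relative of HNRNPU, by 2.54 ± 0.341 log2 (adjusted p = 1.56e-05). The SR proteins, the other large family of splicing regulators, had a median of 0.506 log2 over 12 genes. Of them 4 were higher (SRSF3 1.5, SRSF4 1.97, SRSF7 1.71 and SRSF9 1.61 log2) and SRSF12 was lower (-1.81 log2), beside 28.3% of all genes called higher and 21.6% called lower. Of 10 genes of U2AF and the branch point complex 5 were higher: U2AF1 (1.73 log2), U2AF2 (1.47), SF3A3 (1.06), SF3B2 (1.82) and PUF60 (1.51). The SR and U2AF genes named here were chosen after their values were seen.

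Across the 24 gradient libraries, with each line centred, 9 members correlated with the mean of the other members at r of 0.724 (HNRNPH1) to 0.88 (HNRNPK), and HNRNPA1 at -0.153. The HNRNPA1 value includes its 3 very low libraries. The closest pair was HNRNPK and HNRNPU at r = 0.93. The 5 genes outside the lists with the profile most like the member mean were CAPN2 (r = 0.931), EIF3B (0.928), PDIA4 (0.926), MAGED2 (0.924) and HDAC1 (0.924). These correlations describe 24 libraries that share their lines and fractions and carry no p-value.

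In RIP-seq, HNRNPF was the 1 member of 10 called higher in IP than in IgG, where the background was 0.224% of 11612 genes called higher. It had 183, 173 and 203 CPM in IP (WT, S34F, FS), 83.4, 74.5 and 57.8 CPM in IgG, and 147, 163 and 151 CPM in Cytosol. All IP values lay above all IgG values, and IP lay close above Cytosol. The increase over IgG was 1.21 ± 0.275 log2 (SE, edgeR quasi-likelihood adjusted p = 0.0381), and IP over Cytosol was 0.257 ± 0.269 log2 (adjusted p = 0.915). IgG over Cytosol was -0.951 ± 0.273 log2 (adjusted p = 0.238). The call did not hold without any 1 of the lines (1.01 to 1.38 log2, adjusted p = 0.122 to 0.301) or without the line block (1.2 log2, adjusted p = 0.104).

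Of the 10 members, HNRNPA1 had the largest difference between IP and IgG, with a wide error. It had 21.2, 30.7 and 39.1 CPM in IP, 3.36, 15.3 and 14.1 CPM in IgG and 15.7, 22.8 and 14.2 CPM in Cytosol. The IP and IgG groups did not overlap, yet the WT IgG value rests on 11.94 counts and the difference of 1.44 ± 0.718 log2 was not called (adjusted p = 0.422). It was called in 0 of 9 alternatives, among them the sum with its copies. The copy HNRNPA1L2 had 166, 342 and 294 CPM in IP against 115, 162 and 96.2 CPM in IgG. Its difference of 0.913 ± 0.267 log2 was not called either (adjusted p = 0.133). HNRNPH1 had 42.2, 129 and 94.4 CPM in IP against 51.3, 44.0 and 62.4 CPM in IgG, so that WT went the other way from S34F and FS (0.483 ± 0.407 log2, adjusted p = 0.686). HNRNPA2B1 had 61.6, 112 and 117 CPM in IP against 48.2, 67.0 and 55.4 CPM in IgG (0.576 ± 0.357 log2, adjusted p = 0.544).

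HNRNPM had 108, 61.6 and 148 CPM in IP against 58.6, 30.5 and 107 CPM in IgG, higher in IP within each line, though the groups overlapped (0.582 ± 0.331 log2, adjusted p = 0.495). HNRNPU was the lowest of the family in this comparison, with 55.3, 97.3 and 142 CPM in IP against 118, 105 and 114 CPM in IgG (-0.42 ± 0.342 log2, adjusted p = 0.677). HNRNPK (-0.261 ± 0.3), HNRNPC (0.0226 ± 0.216), HNRNPL (0.0788 ± 0.236) and HNRNPD (0.291 ± 0.529 log2) were not called either. The members' median was 0.387 log2, against 0.0291 over all genes.

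Against Cytosol, 0 of 10 members were called in IP (background 0.534% of genes called in either direction, 0 members at an unadjusted p under 0.05, 0 by DESeq2) and 0 in IgG (background 0.68%, 1 member at an unadjusted p under 0.05, 0 by DESeq2). The member medians were -0.0832 and -0.376 log2, against -0.0657 and -0.108 over all genes. These 3 RIP-seq comparisons share libraries and are not independent of each other. The error was wide here, with a biological coefficient of variation of 69.8% in RIP-seq and 32.9% in the gradient.

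**Figure D4:**
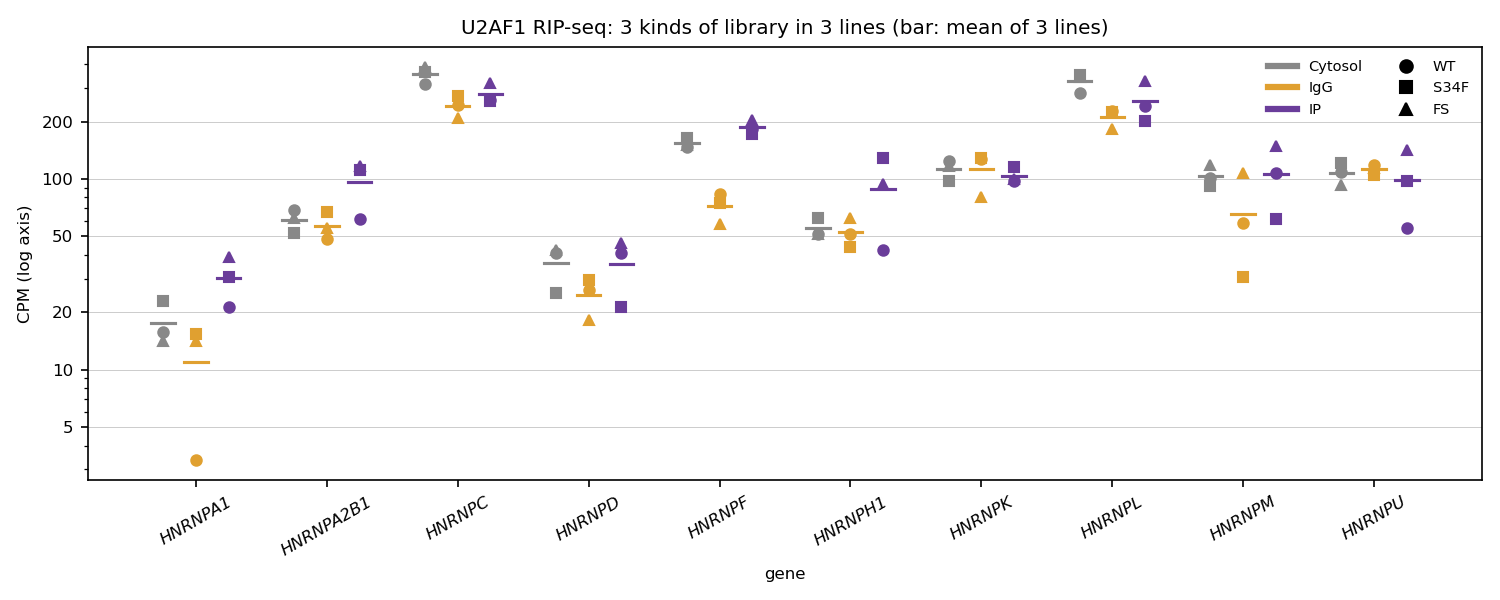
Level of each member (CPM on a log axis) in the Cytosol, IgG and IP libraries of the 3 lines, with 1 symbol per library and a bar at the mean of 3 lines. For HNRNPF the IP libraries lie at 173 to 203 CPM and the IgG libraries at 57.8 to 83.4 CPM. For HNRNPA1 they lie at 21.2 to 39.1 and 3.36 to 15.3 CPM. How many of all genes separate in this way was not counted.

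PAR-CLIP clusters of U2AF1 covered all 10 members in all 3 lists. The lists pool both replicates, so no error between replicates can be given and intervals cover counting error only. In chromatin with WT protein the members held 57060 reads in 342 clusters, led by HNRNPH1 with 12651 reads in 45 clusters, HNRNPU with 12211 in 52, HNRNPA2B1 with 12109 in 49 and HNRNPA1 with 8302 in 30. HNRNPF was at the low end with 704 reads in 14 clusters. In cytoplasm the members held 3822 reads in 106 clusters with WT protein and 6989 reads in 189 clusters with S34F protein. The lists differ in depth, with 4723555 reads in chromatin, 526075 in WT cytoplasm and 658110 in S34F cytoplasm. Scaled to 1000000 reads per list, the members held 12080, 7265 and 10620 reads in that order. HNRNPU and HNRNPH1 each had 19 clusters in the WT cytoplasm list, above 99.2% of the 7569 genes with a cluster there, whose median was 2.

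By number of clusters, introns made up a larger share on the members than over all genes. They were 48.1% of member clusters in WT cytoplasm (51 of 106; exact 95% Clopper-Pearson interval 38.3 to 58.0%), 47.6% in S34F cytoplasm (90 of 189; 40.3 to 55.0%) and 171 of 342 in WT chromatin (44.6 to 55.4%). Over all clusters the shares were 28.9%, 34.1% and 29.8%. By reads, introns held 24.5%, 31.3% and 19.4% on the members against 15.3%, 18.2% and 20.1%, so the order was turned in chromatin. Coding clusters were a smaller share, at 16.0%, 15.3% and 9.65% on the members against 32.5%, 26.5% and 32.6% over all clusters. By reads, coding sequence held 24.8%, 25.9% and 4.06% on the members against 29.8%, 18.4% and 26.1%, higher on the members in S34F cytoplasm. The shares over all clusters also count 13.5%, 12.9% and 9.23% in other classes, of which the members had 0. In chromatin, 3-prime UTR clusters made 14.6% on the members (50 of 342) against 5.82%, and 5-prime splice junctions 5.56% (3.38 to 8.54%) against 1.59%. The 3-prime splice junction, where U2AF1 reads the AG, held 14.6% of member clusters in chromatin against 17.7% of all, and 8.49% and 6.88% in WT and S34F cytoplasm against 2.77% and 3.36%. Clusters of 1 gene share its length, expression and intron number, so these intervals treat as independent what is not.

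**Figure D5:**
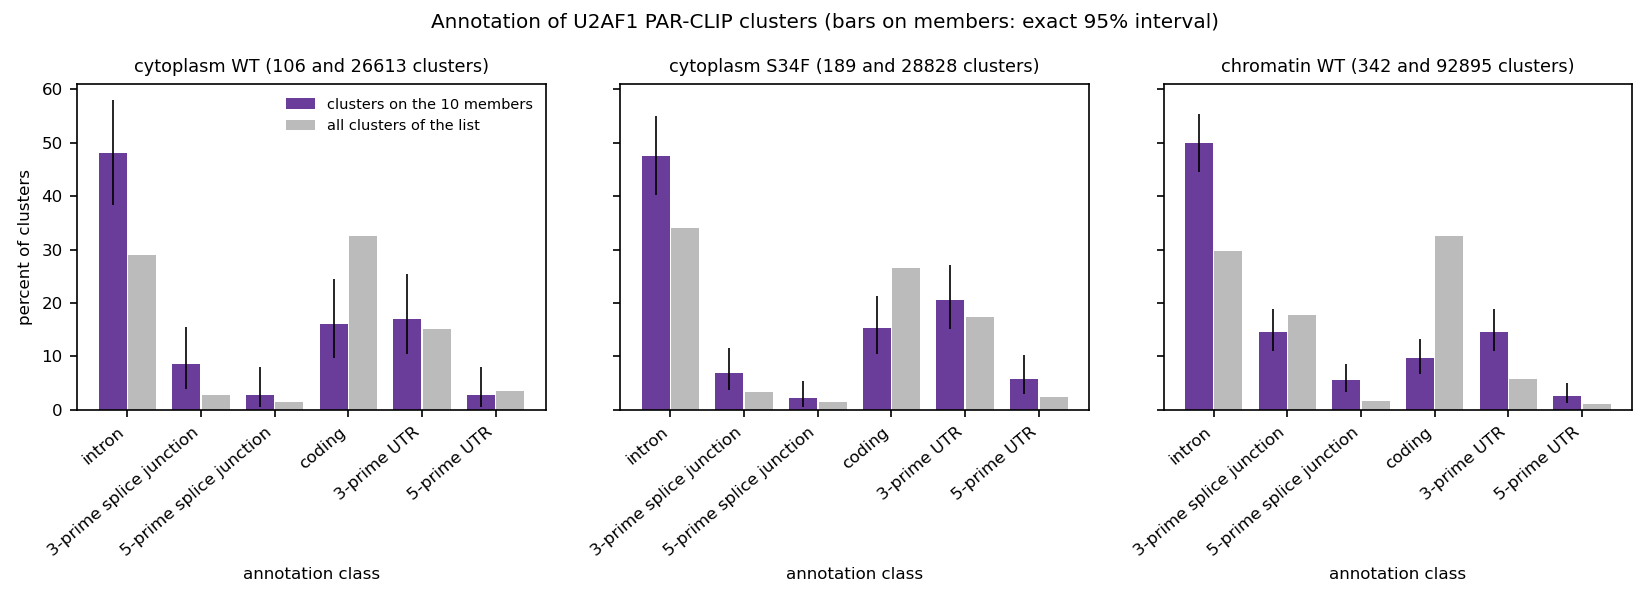
Share of U2AF1 PAR-CLIP clusters in 6 annotation classes (y axis, percent) for clusters on the 10 members (purple, with exact 95% intervals) and for all clusters (grey) in each of the 3 lists. Introns reach at least 47.6% on the members against 28.9 to 34.1% of all clusters, and coding sequence is lower on the members in each list.

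Sequences under chromatin clusters at 3-prime splice junctions, the site U2AF1 is known for, are shown for the 7 members that have one short enough. Each has the most conversion events of its gene among those clusters of at most 30 bases, printed 5′ to 3′ on the transcribed strand, with CAG and TAG in capitals. The genome build is not given in the sources used here, and the positions are those of the lists.
HNRNPA1, chr12:54676568-54676597, plus strand, 513 reads: aaactttttcttaCAGgtggctttggtggc
HNRNPH1, chr5:179043953-179043977, minus strand, 177 reads: ccttttctctcatttCAGaacaCAG
HNRNPK, chr9:86585232-86585261, minus strand, 108 reads: aaaaaatcttttCAGttggctggatctatt
HNRNPC, chr14:21699217-21699239, minus strand, 65 reads: tttttCAGatattaacctggctg
HNRNPM, chr19:8530357-8530386, plus strand, 232 reads: attaCAGgctggaagacttggaagcaCAGt
HNRNPU, chr1:245026018-245026043, minus strand, 28 reads: gtgtgtttTAGgggacggcaaaaCAG
HNRNPD, chr4:83278573-83278602, minus strand, 9 reads: acCAGgtggaatccaTAGagctccccatgg
HNRNPA1, HNRNPH1, HNRNPK and HNRNPC show a pyrimidine-rich stretch followed by CAG, the layout of an intron end, and HNRNPU shows TAG at that place. Of the 16 member clusters of this class and length, 81.2% held CAG and 37.5% TAG anywhere on the transcribed strand, against 60.5% and 42.1% of 6834 such clusters over all genes. TTTT was in 56.2% and 43.9%. A cluster can hold both trinucleotides, and a match is a description of the letters, not a mapped contact.

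In WT cytoplasm the same choice over all classes gave 1 cluster for each of 9 members (HNRNPA1 had none of that length), and 6 are shown, from introns and UTRs, in the same notation.
HNRNPH1, chr5:179048501-179048524, minus strand, intron, 10 reads: gtCAGtatataTAGgcttcacaag
HNRNPU, chr1:245025548-245025575, minus strand, intron, 18 reads: attattttaCAGgctcTAGgagtttcgt
HNRNPD, chr4:83292225-83292254, minus strand, intron, 11 reads: ggagatgtctgaagCAGttctttaagCAGc
HNRNPM, chr19:8521695-8521717, plus strand, intron, 9 reads: gttttggtgtgagattgatgtgc
HNRNPF, chr10:43892120-43892147, minus strand, 5-prime UTR, 18 reads: accttgtctcggggcctcggcgctgctt
HNRNPK, chr9:86584086-86584110, minus strand, 3-prime UTR, 266 reads: agggttgggggggggaagggcgtgc
Of the 9 clusters 4 hold CAG or TAG: those of HNRNPH1, HNRNPU and HNRNPD shown here and an intron cluster of HNRNPC. The HNRNPK cluster held 80.6% of the HNRNPK reads of this list, is rich in G, and had a T-to-C fraction of 0.046. Over the 40 member clusters of at most 30 bases in WT cytoplasm, 32.5% held CAG and 17.5% TAG, against 37.0% and 18.2% of 18687 such clusters over all genes.

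On HNRNPA1 the 3-prime UTR held 4 of 6 clusters in WT cytoplasm and 13 of 18 in S34F cytoplasm. In chromatin a single cluster of 157 bases at chr12:54679719-54679875 held 4901 of its 8302 reads (59.0%), with a T-to-C fraction of 0.971, and 13 of its 30 clusters lay in the 3-prime UTR. The strongest HNRNPA1 cluster of S34F cytoplasm, at chr12:54679726-54679842 with 206 reads, lay inside the same stretch. In WT cytoplasm the strongest was at chr12:54679122-54679156, with 111 of 235 reads. Of 54 HNRNPA1 clusters in the 3 lists 28 lay outside the span that the RIP-seq tables give the gene, which ends at position 54679030, whereas all clusters of the other 9 members lay inside their spans.

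Other members had their strongest chromatin clusters at junctions and codons. On HNRNPA2B1 a 5-prime splice junction cluster at chr7:26237240-26237366 held 2052 reads, and on HNRNPU one at chr1:245022577-245022689 held 1740. HNRNPH1 was led by a 3-prime splice junction cluster at chr5:179047967-179048202 with 1789 reads. HNRNPL was led by 3 clusters of that class, with 812, 565 and 335 reads. HNRNPK had 9 of its 23 chromatin clusters at 3-prime splice junctions, and HNRNPF had 8 of its 14 in coding sequence. The clusters of HNRNPC and HNRNPK with the most reads covered start codons, with 435 and 241 reads.

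Between WT and S34F protein in cytoplasm the members differed in both directions, as counts of 1 pooled list each with no test. HNRNPH1 had 19 clusters and 791 reads with WT protein and 31 clusters and 2607 reads with S34F protein, or 1504 and 3961 when each list is scaled to 1000000 reads. HNRNPC had 6 clusters and 91 reads against 31 and 502 (173 and 763 scaled), and HNRNPA1 6 and 235 against 18 and 638 (447 and 969 scaled). HNRNPA2B1 was nearly level, with 1783 and 1813 scaled reads in 14 and 24 clusters. HNRNPK had 330 reads against 50 (627 and 76 scaled), and 266 of the 330 lay in the G-rich 3-prime UTR cluster given above. This order was turned when a T-to-C fraction of at least 0.2 was required. HNRNPK then had 24 reads in 3 clusters with WT protein and 50 reads in 6 with S34F protein. HNRNPL had 327 against 159 (622 and 242 scaled) at 11 and 13 clusters. With at least 10 reads required per cluster, HNRNPC had 1 cluster with WT protein and 14 with S34F protein.

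Member clusters were also compared across the lists, counting an overlap of at least 1 base. Of the WT cytoplasm clusters on members 45.3% overlapped a WT chromatin cluster (48 of 106), against 18.2% over all genes, and 13.2% of the chromatin clusters overlapped one in WT cytoplasm, against 5.34%. Of the S34F cytoplasm clusters 44.4% overlapped chromatin (84 of 189), against 21.3%. Between the 2 cytoplasm lists 29.2% of the WT and 17.5% of the S34F clusters were shared, against 10.2% and 9.41%. A gene with many clusters offers more chances of overlap, and this was not tested.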

How the data were processed

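The members and the other gene lists were chosen with earlier results of these data known. The gradient and RIP-seq tables hold expected counts per gene symbol and, for RIP-seq, RPKM, in the form the authors deposited; 57.4% and 26.2% of the count values were not whole. TopHat is the only tool in the submitters' processing notes; its version, the counting tool, the annotation and the genome build are not given in the sources used here. For each PAR-CLIP cluster the deposited lists give counts of reads and of conversions and the fraction of T-to-C conversion, whose denominator the headers do not state; each pools both replicates, per the labels. Clusters were therefore ranked by the deposited count of conversion events. In the deposited RPKM, the implied library total was 3.15 to 5.68 times the summed counts. RPKM therefore entered no test and served to order genes in Cytosol. The RPKM values and SDs given for the lines carry this scaling.

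Repeated symbols were dropped (45 in the gradient, 119 in RIP-seq), 28 names turned into dates were left out of use, and counts were rounded. edgeR 4.0.16 (limma 3.58.1, R 4.3.3) fitted all 24 gradient and all 9 RIP-seq libraries separately, with filterByExpr, TMM factors (0.722 to 1.4 and 0.908 to 1.11), line as a block and the quasi-likelihood test, over 15945 and 11612 genes; standard errors come from the log2 fold change and its F. Pairing comes from the shared cell line: deviations of libraries of 1 line correlated at a median of 0.346 in the gradient (78 of 84 pairs above 0) and 0.064 in RIP-seq (9 of 9). Alternatives were RLE scaling, no filter, DESeq2 1.42.0, no block, each line left out, other fractions, cluster minimums of 10 reads or a fraction of 0.2, and a larger minimum overlap between clusters. All 10 members were named in each comparison, with the 2 largest changes among other hnRNP genes and the 5 most similar profiles.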

Additional observations from a re-analysis of the deposited data

Results flagged for a closer look

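HNRNPA1 moved in opposite directions between lines, by 1.5-fold or more each way, from monosomes to the 8-10 fraction, with a fold of 1.83 in WT, 0.065 in S34F and 1.39 in FS. From 7 to 8-10 ribosomes, a comparison that shares the 8-10 libraries with the first, the folds were 1.98, 0.0588 and 1.07. Both S34F values rest on the library with 15.52 HNRNPA1 counts. HNRNPU did so in IP over Cytosol, with a fold of 0.507 in WT, 0.804 in S34F and 1.53 in FS. Each line has 1 library of each kind, so these differences were not tested. Groups of 3 libraries are too small to test single outlying libraries.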

How the results depend on the processing

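Of 10 members, 9 were higher in 8-10 over monosomes with RLE scaling, without a filter, by DESeq2 and under the 3 settings added after the data were seen (copies of HNRNPA1 summed, isolated-zero genes left out, libraries of very low HNRNPA1 left out). Under the last of these settings the 9 were not the same genes, since HNRNPH1 lost its call and HNRNPA1 gained one. Those libraries were left out for their HNRNPA1 level, so that call gives no test of HNRNPA1. The count was 8 to 9 with each line left out, 8 with no replicate block, and 5 with the fractions 5 to 8-10 set against monosomes and 2. The 1 member higher in IP over IgG became 0 with no replicate block and 0 to 0 with each line left out. From monosomes to 2 and 3 ribosomes, 1 member (HNRNPA1) was higher with its copies summed and 1 without the low libraries, which were left out for their HNRNPA1 level and so give no test of HNRNPA1. From there to 6 and 7, 1 was lower with RLE, 1 by DESeq2, 1 without S34F (0 to 1 with each line left out), 1 with the copies summed and 1 without the low libraries, and 1 was higher by DESeq2. No called value changed sign. Over all genes called, IP over IgG gave 156 as reported, 352 without a filter, 636 by DESeq2, 248 without isolated-zero genes, 32 without the block and 17 to 207 with a line left out. IP over Cytosol gave 62, against 153 without a filter, 142 by DESeq2 and 36 without the block, and IgG over Cytosol 79, against 197, 223 and 60, and 139 without S34F. The gradient gave 7958 in 8-10 over monosomes and 5248 without the block. It gave 500 from monosomes to 2 and 3 ribosomes, against 797 without a filter, 1093 by DESeq2, 3 without the block and 0 without FS. It gave 5350 from 2 and 3 to 6 and 7, against 3154 without the block and 2385 without WT, and 4627 from 7 to 8-10, against 2216 without the block, 3001 without FS and 2607 without S34F. Leaving out the filter moved the median of all genes in 8-10 over monosomes from 0.0754 to 0.336 log2 and that of the members from 1.70 to 1.97, and the share of higher calls from 7 to 8-10 from 50.1% to 63.6%. Setting the last fraction at 8 or 10 moved 27 of 60 member indices by more than the spread between lines. PAR-CLIP counts of the 10 members together stayed within 1.5 times under both stricter minimums, while 8 of 60 single counts did not.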
